A study of Mus musculus with 2 samples.

Results

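Genes for translation initiation and elongation factors were followed in RNA recovered with an antibody against nucleolin, an abundant RNA-binding protein of the nucleolus, and with IgG. The members were the gene symbols of the deposited table that begin with Eif1 to Eif6, Eef1 or Eef2, together with Pabpc1, Tpt1, Naca, Btf3 and Gnb2l1. The rule uses names and no measured value, but the members were chosen with earlier results of these data known. The members numbered 67 of 23924 symbols. Both libraries came from RAW 264.7 cells, a mouse macrophage line, in which mRrp6, an RNase of the nuclear exosome (gene Exosc10), had been depleted and that then received LPS (80 ng/ml) for 12 h. The nucleolin library held RNA eluted after immunoprecipitation of nuclear extract with the nucleolin antibody, and the IgG library held RNA from the same kind of extract with rabbit IgG. There was 1 library in each group and no undepleted or unstimulated sample, so differences have no replicate check. No p-value was computed. The intervals given below compare these 2 libraries by counting error only and do not measure the spread between replicates. The nucleolin library is titled Nucleoplasmic RNAs, and the series' design text and the column name, not that title, identify it. The libraries are called the nucleolin precipitate and the IgG precipitate in what follows.

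Translation begins when initiation factors load the start tRNA and the small ribosomal subunit onto a capped messenger RNA and scan for a start codon. Elongation factors then deliver aminoacyl-tRNAs and move the ribosome along. Many of the messenger RNAs for these proteins begin with a terminal oligopyrimidine (TOP) tract, which couples their own translation to growth signalling, and macrophages adjust several initiation factors during the response to LPS.

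Levels are given in FPKM, fragments scaled to transcript length and to the total of mapped fragments, with transcript rows summed per gene. A gene was measured if it reached 1 FPKM in a library, was listed in a library at 0.1 FPKM or more, and was called higher or lower if log2((nucleolin FPKM + 1)/(IgG FPKM + 1)) was at least 1 or at most -1, a 2-fold difference on that scale. Because a fragment on a transcript of known length is worth a fixed FPKM, whole fragment numbers could be read back from the table. For an intronless gene with 1 fragment the inverse of the FPKM is a linear function of gene length, and 1 line was sought among all genes of 600 to 6000 bases with 1 transcript row, whether or not they have introns. It passed through 9 of 226 genes tried in the nucleolin precipitate and 19 of 269 in the IgG precipitate. The lines gave scaling totals of 60896 fragments for the nucleolin precipitate and 23669 for the IgG precipitate. Other genes were then solved for the fragment number at which the implied transcript length was a whole number of bases. Of 340 genes solved in both libraries, 339 gave the same length from each. Fragments on solved genes with values on a single transcript row summed to 1983 in the nucleolin precipitate and 2188 in the IgG precipitate. They are called gene fragments below, and they leave out unsolved genes and genes with several rows above 0. The scaling total, taken as the mapped fragments, was thus 2.57 times as large in the nucleolin precipitate as in the IgG precipitate, while gene fragments were 0.906 times as many. A gene with equal fragments in both appeared at an FPKM ratio near 0.389, which the 2-fold rule calls lower.

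Of the 67 members, 37 were measured (55.2%), against 13.4% of all symbols. Of these 37, 20 were listed in both libraries (54.1%), 11 in the nucleolin precipitate only and 6 in the IgG precipitate only. Among the 3194 genes measured in all, 16.8% were listed in both, 37.1% in the nucleolin precipitate only and 46.0% in the IgG precipitate only. By the 2-fold rule 13 members were higher in the nucleolin precipitate (35.1%, against 37.8% of all genes) and 18 were lower (48.6%, against 56.7%), with 6 less than 2-fold apart. When ratios were centred on the median of all genes (-1.27), 15 members were higher and 8 lower, against 40.2% and 46.5% of all genes. The median log2 ratio was -0.60 over the 37 members and -1.27 over all genes. It was -1.19 over the 20 members listed in both, the same as the -1.19 of the 538 genes listed in both. Of those 20 members 2 were higher and 12 lower, against 3.72% and 63.6% of the 538.

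**Figure D1:**
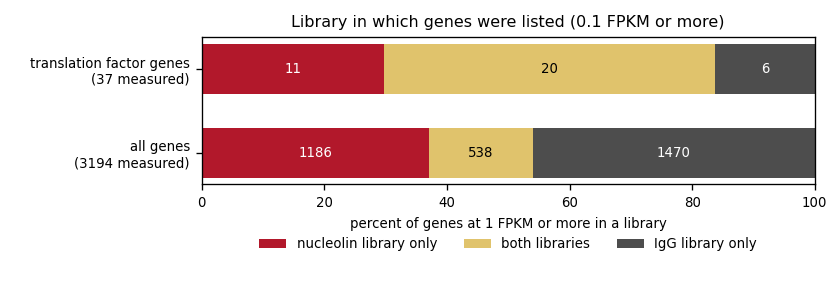
Percent of genes at 1 FPKM or more that were listed in the nucleolin precipitate only, in both libraries, or in the IgG precipitate only, with the number of genes printed in each part of the bar. The translation factor genes have 20 of 37 in both libraries, against 538 of 3194 for all genes.

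Markers of the labelled macrophage were present in both libraries: 11 of 13 were measured, all 11 of them listed in the nucleolin precipitate and 7 in the IgG precipitate. Markers of other tissues were listed in the IgG precipitate only. They comprised 15 of 18 gastric and pancreatic secretory genes, 5 of 6 epithelial genes and 6 of 8 smooth muscle and fibroblast genes. Their summed levels were 0 in the nucleolin precipitate, against 21518, 448 and 340.0 FPKM in the IgG precipitate, and Pnlip, Cpa1, Try4, Epcam, Dcn and Col1a2 were at 0 in both, as were the macrophage genes Emr1 and Ptprc. Their solved fragments numbered 0 in the nucleolin precipitate and 240 in the IgG precipitate. Translation factor genes are active in nearly all cell types, and the part of such cells in the IgG values was not tested. Exosc10 was at 6.42 FPKM in the nucleolin precipitate (1 fragment) and 0 in the IgG precipitate, and Ncl at 6.14 FPKM (3 fragments) and 5.25 FPKM (1 fragment). With mRrp6 depleted in both groups, no value here can check the depletion.

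**Figure D2:**
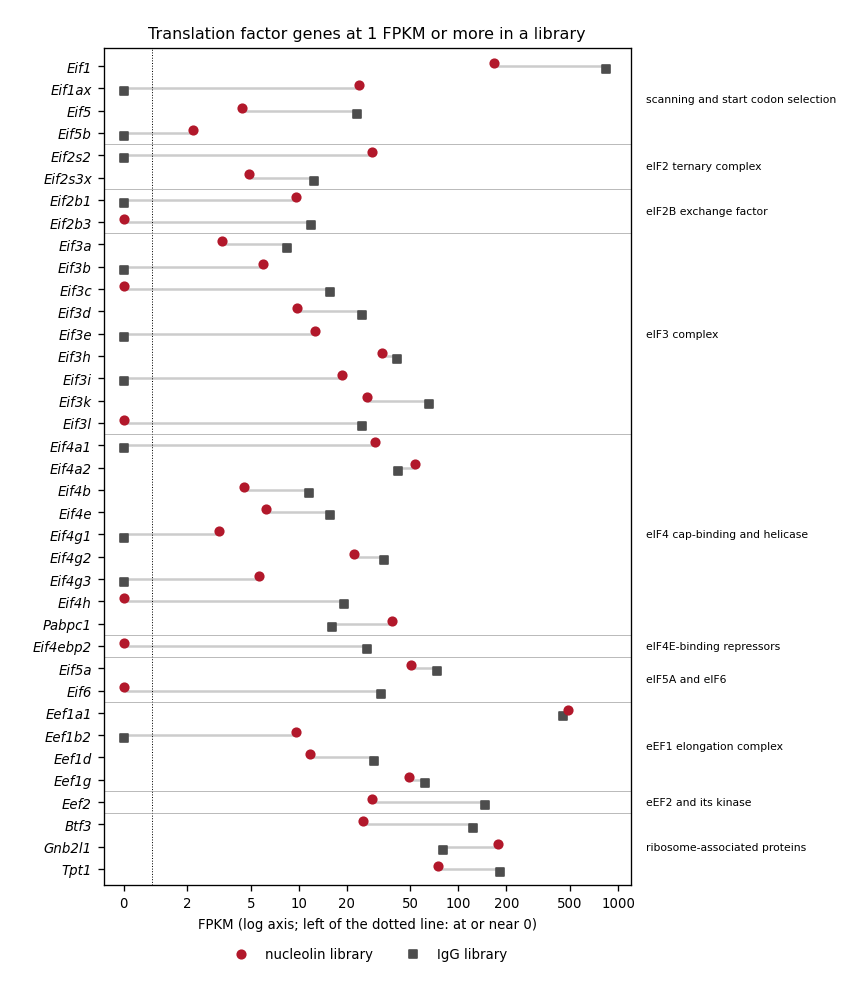
FPKM of the 37 measured translation factor genes in the nucleolin precipitate (circles) and the IgG precipitate (squares) on a log axis, grouped by function, with values at or near 0 drawn left of the dotted line. Eef1a1 is the highest member in the nucleolin precipitate (486 FPKM) and Eif1 the highest in the IgG precipitate (838 FPKM).

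Fragment numbers could be solved for 28 of the 37 measured members, and the other 9 had transcript rows that share fragments. Of the 28, 14 had fragments in both libraries, 8 in the nucleolin precipitate only and 6 in the IgG precipitate only. In 13 of the 28 the measurement was a single fragment in 1 library and 0 in the other. That was so for 68.4% of the 2161 genes solved. Only Eef1a1, Eif1, Eef2 and Gnb2l1 had 10 or more fragments in all, a number that 1.85% of solved genes reached. A library with 0 fragments of a gene allows a share of up to 3 fragments, which is 0.00493% of the nucleolin precipitate and 0.0127% of the IgG precipitate. No fold is given for members listed in 1 library, since none of those solved exceeded 4 fragments there. Intervals and limits cover counting error only, since fragments without molecular identifiers need not be independent molecules.

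**Figure D3:**
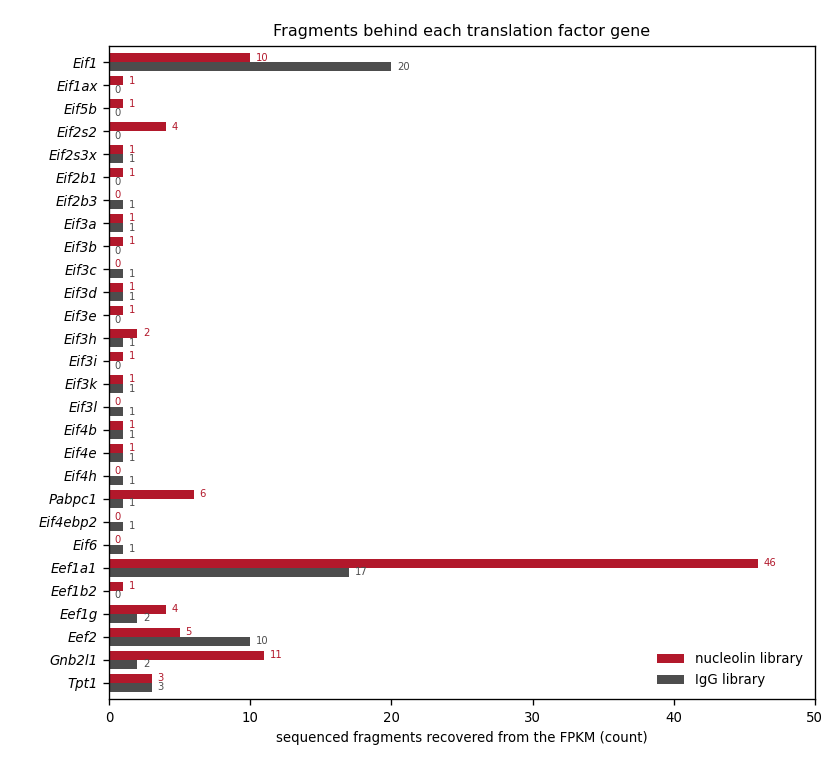
Fragments recovered from the FPKM for the 28 translation factor genes that could be solved, in the nucleolin precipitate (upper bar) and the IgG precipitate (lower bar) of each gene. Eef1a1 has 46 and 17 fragments, Eif1 10 and 20, and most other members have 0 or 1.

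Together the 28 solved members took 104 fragments in the nucleolin precipitate and 68 in the IgG precipitate. That was 5.24% of the 1983 gene fragments solved in the nucleolin precipitate (exact 95% binomial interval 4.31 to 6.32%). In the IgG precipitate it was 3.11% of the 2188 solved (2.42 to 3.92%). Without the markers of other tissues in the total, the IgG share was 3.49% (2.72 to 4.40%), an interval that overlaps that of the nucleolin precipitate. Much of the difference lay in Eef1a1, which held 44.2% of the members' fragments in the nucleolin precipitate and 25% in the IgG precipitate. Without it the shares were 2.92% (2.23 to 3.76%) in the nucleolin precipitate and 2.33% (1.74 to 3.05%) in the IgG precipitate, and these intervals overlap. Without Eif1 they were 4.74% (3.85 to 5.77%) and 2.19% (1.62 to 2.90%), intervals that do not overlap. Without both genes the nucleolin-to-IgG ratio was 1.71 per gene fragment (1.07 to 2.78) and 0.602 per mapped fragment (0.375 to 0.978). In FPKM the order was opposite to that of the shares: the measured members summed to 1428 FPKM in the nucleolin precipitate and 2415 FPKM in the IgG precipitate, a log2 ratio of -0.76. The log2 ratio was -0.32 without Eif1 and -1.06 without Eef1a1.

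Among the factors for scanning and start codon choice, Eif1 stood out in the IgG precipitate. Eif1, which guards the accuracy of start codon choice, was at 168 FPKM in the nucleolin precipitate and 838 FPKM in the IgG precipitate, from 10 and 20 fragments on a transcript of 1211 bases. The gene lies on mm10 chromosome 11 from 100319949 to 100322099. Per mapped fragment the nucleolin-to-IgG ratio was 0.194, with an exact 95% interval of 0.0812 to 0.435 that lies below 1. Per gene fragment the ratio was 0.552 with an interval of 0.231 to 1.23, which spans 1. Eif1ax, the X-linked eIF1A that works with eIF1, was at 23.7 FPKM in the nucleolin precipitate and 0 in the IgG precipitate, from 1 fragment. Eif5b, the GTPase that joins the ribosomal subunits, was at 2.17 FPKM and 0, also from 1 fragment. Eif5, which activates GTP hydrolysis by eIF2, was at 4.40 FPKM in the nucleolin precipitate and 23.3 FPKM in the IgG precipitate. The nucleolin value of Eif5 lay on the transcript NM_173363 and nearly all of the IgG value on NM_178041 (23.2 FPKM). Eif1a, Eif1ad, Eif1b and Eif2d were not measured.

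The eIF2 complex brings the start tRNA to the ribosome, and eIF2B recharges it with GTP. Eif2s2, the beta subunit, was at 28.8 FPKM in the nucleolin precipitate and 0 in the IgG precipitate, and with 4 fragments it was the member with the most fragments among those solved and listed in 1 library. Its ratio per mapped fragment has a lower bound of 0.257, so a level no higher than in the IgG precipitate lies within counting error. Eif2s3x, the X-linked gamma subunit, had 1 fragment in each library (4.90 FPKM and 12.5 FPKM). Of the eIF2B subunits, Eif2b1 was at 9.64 FPKM in the nucleolin precipitate and 0 in the IgG precipitate, and Eif2b3 at 0 and 11.9 FPKM, each from 1 fragment. The eIF2B pair thus pointed in both directions at the smallest number a library can show. Eif2s1, Eif2a, Eif2s3y, Eif2b2, Eif2b4, Eif2b5 and all 4 eIF2 kinases, Eif2ak1 to Eif2ak4, were not measured. The kinases include Eif2ak2, the interferon-induced kinase PKR.

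The eIF3 complex, the largest initiation factor, which holds the small ribosomal subunit open for messenger RNA, had 9 of 13 members measured. Of these 3 were higher in the nucleolin precipitate (33.3%, against 37.8% of all genes), 5 lower (55.6%, against 56.7%) and 1 within 2-fold. The 3 higher members, Eif3b (6.01 FPKM), Eif3e (12.6 FPKM) and Eif3i (18.8 FPKM), were at 0 in the IgG precipitate, from 1 fragment each. Eif3c and Eif3l were at 0 in the nucleolin precipitate, against 15.8 and 25.0 FPKM in the IgG precipitate, again from 1 fragment each. The remaining lower members had 1 fragment in each library. They were Eif3a (3.32 FPKM in the nucleolin precipitate and 8.50 FPKM in the IgG precipitate), Eif3d (9.80 and 24.7 FPKM) and Eif3k (26.8 and 65.5 FPKM). Eif3h had 2 fragments in the nucleolin precipitate and 1 in the IgG precipitate (33.0 and 41.2 FPKM). Over the whole complex there were 8 fragments in the nucleolin precipitate and 6 in the IgG precipitate, and no subunit had more than 2. Eif3f, Eif3g, Eif3j1 and Eif3m were not measured.

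The eIF4 factors bind the cap, unwind the leader and, with the poly(A)-binding protein, close the messenger RNA into a loop. Of 12 members 9 were measured. Of these 4 were higher in the nucleolin precipitate (44.4%, against 37.8% of all genes), 3 lower (33.3%, against 56.7%) and 2 within 2-fold, too few genes to set apart from all genes. Pabpc1, the cytoplasmic poly(A)-binding protein (mm10 chr15:36595658-36609581), was at 38.1 FPKM in the nucleolin precipitate and 16.1 FPKM in the IgG precipitate, from 6 fragments and 1. Its ratio was 2.33 per mapped fragment (0.283 to 107) and 6.62 per gene fragment (0.803 to 305), and both intervals span 1. Eif4e, the cap-binding protein, was at 6.20 FPKM in the nucleolin precipitate and 15.8 FPKM in the IgG precipitate, and Eif4b, a helicase cofactor, at 4.54 and 11.6 FPKM. Both had 1 fragment in each library. Eif4e in the IgG precipitate has the same FPKM as Eif3c because both hold 1 fragment on a transcript of 2882 bases.

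The helicases Eif4a1 and Eif4a2 differed in how they were listed. Eif4a1 was at 30.1 FPKM in the nucleolin precipitate and 0 in the IgG precipitate. Eif4a2 was at 53.8 FPKM in the nucleolin precipitate and 41.7 FPKM in the IgG precipitate, but on different transcripts, NM_013506 in the nucleolin precipitate and NM_001123037 in the IgG precipitate, with 0 FPKM of NM_001123037 in the nucleolin precipitate. Eif5a, the factor that helps ribosomes past difficult peptide bonds, showed the same separation, with 50.1 FPKM on NM_001166595 in the nucleolin precipitate and 73.6 FPKM on NM_181582 in the IgG precipitate. Values of 1 row in such genes rest on the division of a few fragments among overlapping transcripts, and their numbers were not solved. The scaffolds Eif4g1 (3.17 FPKM) and Eif4g3 (5.63 FPKM) were listed in the nucleolin precipitate only. The related Eif4g2 was at 22.2 FPKM in the nucleolin precipitate and 34.1 FPKM in the IgG precipitate, near 5 and 3 fragments (the transcript lengths implied by the libraries differ by 0.109%). Eif4h, another helicase cofactor (19.1 FPKM), Eif4ebp2, a repressor that sequesters eIF4E (26.7 FPKM), and Eif6, which keeps ribosomal subunits apart (32.7 FPKM), were listed in the IgG precipitate only, from 1 fragment each. Eif4e1b, Eif4e2, Eif4e3, Eif4ebp1, Eif4ebp3, Eif4enif1, Eif5a2 and Eif4a3, the helicase of the exon junction complex, were not measured.

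The eEF1 genes held 51 of the members' fragments in the nucleolin precipitate and 19 in the IgG precipitate, most of them in Eef1a1. Eef1a1, which delivers aminoacyl-tRNA to the ribosome (mm10 chr9:78478453-78481724), was at 486 FPKM in the nucleolin precipitate and 453 FPKM in the IgG precipitate. These levels came from 46 and 17 fragments on a transcript of 1789 bases. Its ratio was 1.05 per mapped fragment, with an interval of 0.592 to 1.96 that spans 1. Per gene fragment it was 2.99 (1.68 to 5.56), an interval above 1, as 0.925% of solved genes had. Eef1g, a subunit of the exchange factor that recharges eEF1A, had 4 fragments in the nucleolin precipitate and 2 in the IgG precipitate (49.4 and 62.0 FPKM). Eef1b2, the nucleotide exchange subunit, was at 9.67 FPKM in the nucleolin precipitate from 1 fragment and 0 in the IgG precipitate. Eef1d, another exchange subunit, was at 11.7 FPKM in the nucleolin precipitate and 29.5 FPKM in the IgG precipitate, divided over the same 3 main transcripts in both. Eef1a2, the form of neurons and striated muscle, was not measured, nor were Eef1e1 and Eef2k, the kinase of eEF2.

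Eef2, the translocase (mm10 chr10:81176631-81182509), was at 28.6 FPKM in the nucleolin precipitate and 146 FPKM in the IgG precipitate, from 5 and 10 fragments. Its ratio was 0.194 per mapped fragment (0.0521 to 0.624), an interval below 1, and 0.552 per gene fragment (0.148 to 1.77), which spans 1. Eef2 and Eif1 were the only solved members whose interval per mapped fragment lay wholly below 1, as it did for 3.38% of solved genes. No member had an interval wholly above 1 on that scale, as 0.0463% of solved genes had. Per gene fragment only the intervals of Eef1a1 and Gnb2l1 lay wholly above 1 and none lay wholly below, against 1.02% of solved genes below. No solved member had an interval that excluded 1 on both scales.

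The remaining measured members, Gnb2l1, Tpt1 and Btf3, also differed among themselves. Gnb2l1, listed by RefSeq as Rack1, a scaffold protein of the small ribosomal subunit, lies on chromosome 11 from 48800360 to 48806241. It was at 177 FPKM in the nucleolin precipitate and 80.4 FPKM in the IgG precipitate, from 11 fragments and 2. Its ratio was 2.14 per mapped fragment (0.467 to 19.8) and 6.07 per gene fragment (1.32 to 56.3), and the interval lay above 1 on the second scale only. Tpt1, the translationally controlled tumor protein, was at 74.7 FPKM in the nucleolin precipitate and 183 FPKM in the IgG precipitate, from 3 fragments in each. Btf3, a subunit of the nascent polypeptide-associated complex, was at 25.1 FPKM in the nucleolin precipitate and 123 FPKM in the IgG precipitate, near 1 fragment and 2. Naca, its partner in that complex, was not measured.

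**Figure D4:**
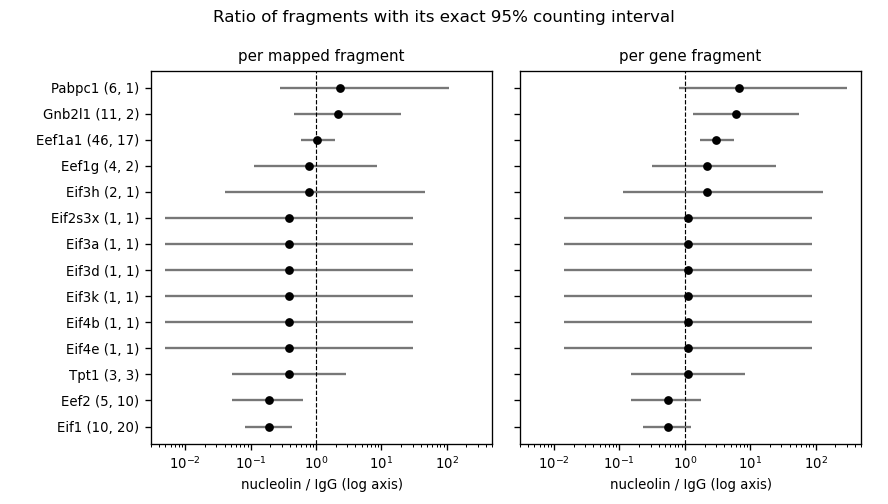
Nucleolin-to-IgG ratio of fragments with its exact 95% counting interval for the 14 solved members with fragments in both libraries, on log axes. Ratios are scaled per mapped fragment (left) and per gene fragment (right), with fragment numbers (nucleolin, IgG) beside each name. The intervals of Eif1 and Eef2 lie below 1 on the left, and those of Eef1a1 and Gnb2l1 above 1 on the right.

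Of the 12 members that were listed in both libraries and called lower, 7 had equal fragment numbers. They were Tpt1, Eif2s3x, Eif3a, Eif3d, Eif3k, Eif4b and Eif4e. Equal numbers were found in 49.0% of the 339 solved genes with fragments in both libraries, more in the nucleolin precipitate in 36.3% and more in the IgG precipitate in 14.7%. Of the 14 members of this kind 7 had equal numbers, 5 (Eef1a1, Gnb2l1, Pabpc1, Eef1g and Eif3h) had more in the nucleolin precipitate and 2 (Eif1 and Eef2) had more in the IgG precipitate.

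The start of the transcript was examined because a TOP tract sits there. The measured members with a pyrimidine run across the annotated start (Gnb2l1, Eef1a1, Eif2s3x and Eif3l) are shown on the transcribed strand, with Eef2, whose run begins 15 bases from the start, added for its fragment number, from RefSeq on GRCm38.p6 (mm10), with the run in capitals. Gnb2l1 and Eef1a1 had more fragments in the nucleolin precipitate, Eef2 had more in the IgG precipitate, Eif2s3x had equal numbers and Eif3l had 1 fragment in the IgG precipitate.
Gnb2l1, chr11:48800347-48800376, plus strand: gaggccgCTCTTTCTTTTTCTCCacagggt
Eef1a1, chr9:78481710-78481739, minus strand: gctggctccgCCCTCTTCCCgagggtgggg
Eef2, chr10:81176634-81176663, plus strand: gacgtcagcggTCTCTTCCgccgcagccgc
Eif2s3x, chrX:94212634-94212663, minus strand: ccgagcaTTTTCCTTTTCTCTCCgagcaag
Eif3l, chr15:79075206-79075235, plus strand: aggcgcggagTTCTTCTTCCgctctctccc

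The run spans 16 bases in Gnb2l1 and in Eif2s3x, 10 in Eef1a1 and in Eif3l and 8 in Eef2. An unbroken run of 8 or more C or T on the transcribed strand, within 50 bases on either side of an annotated start, was found in 24 of the 53 members with a start in the table (45.3%), and in 39.3% of 27025 genes. Of the 37 measured members 9 had no start in the table. Another 11 had such a run, 1 of them higher in the nucleolin precipitate, 8 lower and 2 within 2-fold, with a median log2 ratio of -1.22, near the -1.27 of all genes (37.8% higher and 56.7% lower). The 17 measured members without one had 9 higher, 7 lower and 1 within 2-fold, with a median of 1.67. That median is the value of Eif5b, from 1 fragment and 0, and the -1.22 is that of Eif4e, from 1 fragment in each library. Of the 8 lower members with a run, Eif2s3x, Eif3a, Eif3k and Eif4e had equal fragments, and Eif3c and Eif3l had 1 fragment in all. The medians thus rest on single fragments, and their difference was not tested. The run is a description of these windows and not a mapped TOP tract.

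A list of 18 members reported to carry TOP tracts was also followed. The list was chosen with earlier results of these data known, and its source is not given here. Of the 18 members 16 were measured, 4 higher in the nucleolin precipitate, 9 lower and 3 within 2-fold. Their median log2 ratio was -1.16. The share lower was 56.2%, near the 56.7% of all genes, whose median was -1.27. The 21 other measured members had 9 higher and 9 lower (42.9% each), with a median of -0.54. All 9 higher were listed in the nucleolin precipitate only. Over genes listed in both libraries the median was -1.18 on the list and -1.22 outside it. In fragments the list took 4.19% of gene fragments in the nucleolin precipitate (3.35 to 5.16%) and 1.87% in the IgG precipitate (1.35 to 2.53%). Without Eef1a1 it took 1.87% (1.32 to 2.56%) and 1.10% (0.704 to 1.63%), intervals that overlap. The members outside the list took 1.06% (0.657 to 1.61%) in the nucleolin precipitate and 1.23% (0.815 to 1.79%) in the IgG precipitate.

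Other genes of the translation pathway were followed as a list of 53, of which 18 were measured (34%). Of these 6 were higher in the nucleolin precipitate (33.3%, against 37.8% of all genes), 11 lower (61.1%, against 56.7%) and 1 within 2-fold. The median log2 ratio was -2.19, against the -1.27 of all genes. It includes 6 genes listed in the nucleolin precipitate only and 8 in the IgG precipitate only, whose ratios depend on the pseudocount. Ddx3x, a helicase that aids initiation on structured leaders, was at 7.57 FPKM in the nucleolin precipitate and 87.0 FPKM in the IgG precipitate, from 2 and 9 fragments. Etf1, the release factor that reads stop codons, had 1 fragment in each library (4.73 and 12.1 FPKM). Denr, a ribosome recycling factor (16.4 FPKM), Larp1, which binds TOP tracts (5.15 FPKM), and Dhps, which modifies eIF5A (29.9 FPKM), each had 2 fragments in the nucleolin precipitate and 0 in the IgG precipitate. Mtor, the growth kinase upstream of TOP translation (10.1 FPKM, 2 fragments), and Mknk2, a kinase of eIF4E (1 fragment), were listed in the IgG precipitate only. Of the mitochondrial factors Gfm1 had 1 fragment in each library (6.95 and 17.6 FPKM), and Tufm (56.8 FPKM) and Tsfm (43.2 FPKM) were listed in the IgG precipitate only, while Mtfmt (9.08 FPKM, 1 fragment) was listed in the nucleolin precipitate only.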

How the data were processed

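Per the file headers, the deposited table holds FPKM for 33529 transcript rows, 1 column per library. The tools named in the submitters' processing notes are Trimmomatic 0.32 and FastQC 0.10.0, with build mm10. Not given in the sources used here are the aligner, the quantification tool, strand use and the handling of reads with several alignments, so genes with processed pseudogenes, such as Eef1a1 and Tpt1, are uncertain. Rows without a symbol (56) were left out and the rest summed to 23924 symbols. All 67 member IDs were found in RefSeq GRCm38.p6, which gave positions and start sequences. Fragment numbers were solved for symbols with 1 row above 0, searching 1 to 60 fragments for a transcript length within 0.001 bases of a whole number (300 bases or more, no longer than the gene). Intervals are Clopper-Pearson at 95%. Only the line fit and the solving of fragment numbers were run on simulated data. Those data were made with the formula being solved, a single transcript per gene and mostly low fragment numbers. The sums, calls and intervals were not tested in this way. Python 3.11.15, pandas 2.3.3, numpy 2.4.6, scipy 1.17.1 and matplotlib 3.10.9 were used. Every measured member may be named. The members and lists were chosen with earlier results of these data known. The fragment numbers, the pyrimidine run and the values without single genes were added after seeing the data. Alternatives were other pseudocounts, minimums, scalings and ways of combining rows.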

Additional observations from a re-analysis of the deposited data

How the results depend on the processing

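Leaving out copies, taking the highest row, or setting no minimum left the counts, medians and sum of the members within the limits set (1.5 times for a count, 0.1 in log2 for a value). Against 13 members higher and 18 lower, a minimum of 10 FPKM gave 7 higher, with a median of -1.21 and 2 pathway genes higher in place of 6. Pseudocounts of 0.1 and 5 FPKM moved the median of members listed in both to -1.31 and -0.81. The 3 rescalings turned signs. Members lower were 8 when centred on all genes, 6 with 1 fragment set equal and 6 when scaled to the summed FPKM without Rn45s, Lars2, Mir6236 and Mir142b. In that order the median of the members was 0.67, 0.71 and 0.82, that of members listed in both 0.079, 0.036 and 0.13, and the log2 ratio of the sum 0.51, 0.59 and 0.68. The log2 ratio of the FPKM sum was -1.06 without Eef1a1, -0.32 without Eif1 and -0.54 without both. For summed fragments, a different measure on the 28 solved members only, the log2 ratio was 0.75 per gene fragment and -0.75 per mapped fragment. Single members that turned to at or just above 0 were, when centred, Eef1d (0.0060), Eif2s3x (0.074), Eif3a (0.13), Eif3d (0.014), Eif3k (0.0072), Eif4b (0.084) and Eif4e (0.048). With 1 fragment set equal they were Eef1d (0.018), Eif2s3x (0.00043), Eif3d (0.013), Eif3k (0.058), Eif4e (0.0038) and Tpt1 (0.054). Scaled to the summed FPKM they were Eef1d (0.11), Eif2s3x (0.090), Eif3a (0.085), Eif3d (0.10), Eif3k (0.15), Eif4b (0.089), Eif4e (0.094) and Tpt1 (0.14). By construction the rescalings raise nucleolin values relative to IgG values alike for every gene, and these members hold equal fragments in both libraries, except Eef1d, which was not solved. Of 28 solved members 13 rest on 1 fragment in all, and fragments on solved genes were 3.27% of the scaling total for nucleolin and 9.52% for IgG. No paired analysis was possible because each group has 1 library.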
